A study of Arabidopsis thaliana with 9 samples.

Results

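The loci described here form a stretch of chromosome 5 of Arabidopsis thaliana, from AT5G39250 to AT5G40190 by locus number. Members were all loci in that interval with a probe set annotated to a single gene, and the probe set with the highest mean signal stood for a locus with several. This gave 46 members out of 13286 such loci on the array, 45 of them protein-coding and all read from probe sets with the plain suffix. The members were chosen by the signals of the same 9 arrays, because neighbouring loci in the interval were higher together in the null mutant only, and so the differences between groups below are a description of them, with no test.

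RNA from whole plants of the Col-0 strain was hybridised to 9 single-colour ATH1 arrays, a microarray of short oligonucleotide probes. The 3 groups of 3 arrays were a double transformant whose source is labelled Columbia, an HDA6 null mutant and an HDA6 amino acid substitution mutant. Both mutant groups carry an HDA6 mutation induced with EMS, a chemical mutagen, and have rts1-1 as their labelled source, so only the titles tell them apart. What the double transformant carries, and whether the mutant lines carry the same constructs or were crossed back, is not given in the sources used here. All plants had grown for 35 days at 21 ºC on Murashige and Skoog medium in constant light. The plants of double transformant 1 had a night humidity of 35%, against 53% in all others. Whether replicate arrays came from separate cultures is not stated, and their spread may be technical.

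HDA6 is a histone deacetylase, an enzyme that takes acetyl groups off histone tails, and it is known in this plant for keeping transposable elements, ribosomal RNA genes and transgenes silent. Deacetylated histones go with closed chromatin, which can span several neighbouring genes. The stretch holds 116 annotated loci, of which 102 are protein-coding. Its first loci include a tandem group of alpha-expansin genes, whose products loosen the cell wall, and EXPA21 and EXPA24 of that group are members. Among the other members, cdc2cAt is a gene of the cdc2 kinase family. AT5G39990 is annotated as the beta-glucuronosyltransferase GlcAT14A, an enzyme that adds glucuronic acid to cell wall proteoglycans. The remaining members, like AT5G39990, have only locus numbers as symbols in the annotation used, and their products are not described here. A further 70 loci of the stretch, among them VIM3, NAC6, CDF2, RPL5B and TRX2, had no single-gene probe set in the annotation used and are not analysed here.

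Median array signals ran from 31.8 to 36.8. Double transformant 3 and null mutant 3 stood apart, with the lowest mean correlations to the rest (0.9459 and 0.9446, against 0.954 to 0.967) and the highest 3' to 5' ratio of the GAPDH control (2.15 and 1.95, against 1.38 to 1.82). The medians, sign counts and counts of calls over the members are also given without them. The tissue label could not be checked, since none of the 4 leaf markers listed had a single-gene probe set. Of the other markers, the 2 measured for root hairs summed to 5.05 to 14.0 in the double transformant, 4.14 to 15.5 in the null mutant and 3.17 to 9.475 in the substitution group. The 3 for pollen and tapetum summed to 5.43 to 37.4, 2.05 to 11.3 and 2.28 to 6.13 in the same order of groups, so these ranges overlapped. The median log2 differences of these 3 genes from the double transformant were -1.01 for the null mutant and -0.87 for the other mutant group. The single measured seed marker, PAP85, was at 4.65 to 34.7 in the double transformant, 31.5 to 146 in the null mutant and 71.4 to 121.5 in the substitution group. The part of these markers in the results was not tested. In RNA from whole plants, fewer cells of a type and less RNA per cell cannot be told apart.

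As a group, the 46 members stood higher in each of the 3 null mutant arrays than in any other array. Signals were compared as log2(signal + 4.05), where 4.05 is the 20th percentile of all values, so that differences of dim probe sets are understated. Relative to the double transformant mean of each member, the median over members was 0.64, 0.54 and 0.90 in null mutants 1, 2 and 3. The double transformant arrays were at 0.05, -0.03 and -0.04. The substitution arrays were at 0.02, 0.00 and 0.03, so the null mutant medians did not overlap with those of either group. In null mutant 3, 42 of 46 members were above their double transformant mean, in null mutant 1, 36, and in null mutant 2, 32. The median log2 difference of the null mutant was 0.63 from the double transformant and 0.62 from the substitution group, against medians of 0.03 and 0.04 over all 13286 loci. Without double transformant 3 and null mutant 3 together they were 0.579 and 0.602. The difference of the substitution group from the double transformant had a median of 0.01 over the members and -0.01 over all loci, with 23 of 46 members above 0 (49.3% of all loci).

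**Figure D1:**
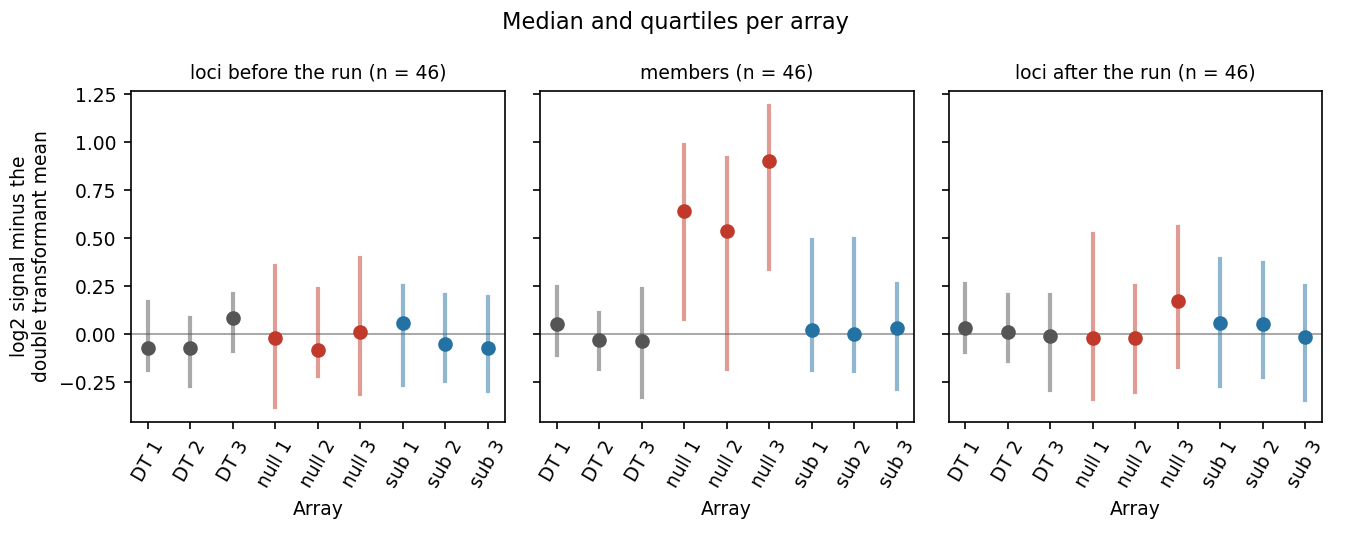
Median (points) and quartiles (bars) of log2 signal minus each locus's double transformant mean, per array (DT double transformant, null null mutant, sub substitution), for the 46 members and the 46 measured loci before and after them. The null mutant medians of the members sit at 0.54 to 0.90, and all other medians lie between -0.08 and 0.18.

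The sign of the difference was shared by most members. Of the 46, 41 were above 0 in the null mutant against the double transformant (53.5% of all loci were) and 37 against the substitution group (54.9%). Without null mutant 3 these counts were 34 and 33, and they were the same without double transformant 3 and null mutant 3 together. The 3 null mutant arrays lay wholly above the 3 double transformant arrays for 18 members, where 8.35% of all loci did so, and wholly above the substitution arrays for 19, where 6.22% did. For 16 members the 3 null mutant arrays lay above all other 6 arrays, which held for 1.72% of all loci. No member had its null mutant arrays wholly below the double transformant (5.04% of all loci) or the substitution group (5.31%). In the fit over all 22746 probe sets (limma, adjusted p under 0.05), 8 members were called higher than in the double transformant and 3 higher than in the substitution group, against 0.659% and 0.0352% of all probe sets called higher. None was called lower, against 0.101% and 0.0044%. The rule used these contrasts, so nothing is read from these counts. The count of 8 was 5 when double transformant 3, null mutant 1 or null mutant 3 was left out. Over all probe sets the 173 calls became 96, 73 and 100 in the same fits. The count of 3 was 1 without double transformant 2, double transformant 3, null mutant 1 or substitution array 2, and 0 without substitution array 1, substitution array 3 or null mutant 3. Over all probe sets the 9 calls became 3, 3, 3 and 4 in the former fits and 0 in each of the latter. Without double transformant 3 and null mutant 3 together the counts were 2 and 0, and over all probe sets 57 and 0.

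Levels divided the members. In 15 of them the mean signal over the 9 arrays exceeded 34.9, the median of all probe set means, and 31 lay below it. All values of the 15 are given next, in the order of arrays 1, 2 and 3 of each group.

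At the start of the stretch, AT5G39250 was at 76.6, 69.3 and 46.3 in the double transformant, 93.2, 129.5 and 165 in the null mutant and 52.5, 55.7 and 55.5 in the substitution group. The null mutant arrays were the 3 highest but spread widely, and the log2 difference was 0.96 ± 0.22 (SE) from the double transformant and 1.15 ± 0.22 from the substitution group. AT5G39410 had signals of 115, 122 and 136 in the double transformant, 321, 314 and 347 in the null mutant and 178, 182 and 144 in the substitution group. Here the 3 groups were fully apart, with the substitution arrays between the others, and the null mutant differed by 1.37 ± 0.12 and 0.95 ± 0.12 on the log2 scale. It was among the 3 members called against both other groups. AT5G39520 was the least even of the 15, with 126, 56.2 and 53.7 in the double transformant, 163, 493 and 173 in the null mutant and 164, 149 and 106 in the substitution group. Null mutant 2 alone was far above the rest, and null mutant 1 lay just below substitution array 1. Its difference from the double transformant, 1.67 ± 0.41, had the largest SE among the 15, and that from the substitution group was 0.79 ± 0.41.

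AT5G39570 was at 1105, 1058 and 971 in the double transformant, 2201, 1458 and 1875 in the null mutant and 1137, 1047 and 1009.5 in the substitution group. The other 6 arrays agreed closely, and the null mutant mean was 1845 ± 372 (SD, n = 3) against 1045 ± 67.8 and 1065 ± 65.5, with log2 differences of 0.80 ± 0.15 and 0.77 ± 0.15. AT5G39590 was at 758, 668 and 769.6 in the double transformant, 1241, 1337 and 1238 in the null mutant and 593, 641 and 606 in the substitution group. The null mutant was the highest group and the substitution group the lowest, with no overlap among the 3 groups. The differences of the null mutant were 0.80 ± 0.11 and 1.05 ± 0.11, the smallest SE among the 15. Its neighbour AT5G39600 was at 89.1, 124 and 75.7 in the double transformant, 211, 218 and 215 in the null mutant and 83.6, 110.5 and 115 in the substitution group. The null mutant arrays lay close together (214 ± 3.65, SD, n = 3), while the other 2 groups overlapped below them. The differences were 1.15 ± 0.18 and 1.04 ± 0.18.

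AT5G39730 was at 346, 256 and 213 in the double transformant, 616, 648 and 575 in the null mutant and 353, 303 and 348 in the substitution group. All null mutant arrays were above the other 6, and the differences of the group means were 1.19 ± 0.16 and 0.87 ± 0.16. AT5G39790 was at 29.6, 32.6 and 63.0 in the double transformant, 57.7, 52.3 and 76.0 in the null mutant and 30.6, 27.7 and 25.3 in the substitution group. Double transformant 3 reached into the null mutant range, which left the smallest difference from the double transformant among the 15 (0.58 ± 0.28), while the difference from the substitution group was 1.04 ± 0.28. AT5G39850 was at 63.6, 52.4 and 42.1 in the double transformant, 189, 179.9 and 189 in the null mutant and 99.3, 107 and 114 in the substitution group. Its 3 groups were stepwise apart, and it had the largest difference from the double transformant (1.76 ± 0.15) but one of the smaller differences from the substitution group (0.78 ± 0.15).

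AT5G39940 was at 41.3, 38.3 and 27.1 in the double transformant, 60.7, 83.6 and 86.7 in the null mutant and 35.8, 28.8 and 40.1 in the substitution group. The null mutant was above both other groups by nearly the same amount, 1.04 ± 0.23 and 1.05 ± 0.23. AT5G39980 was at 31.7, 28.8 and 31.3 in the double transformant, 60.6, 62.2 and 72.6 in the null mutant and 30.3, 35.2 and 31.6 in the substitution group. The arrays of the other 2 groups lay in one narrow band below it, with differences of 0.99 ± 0.19 and 0.92 ± 0.19. AT5G39990, the glucuronosyltransferase gene, was at 53.7, 51.1 and 49.2 in the double transformant, 98.9, 89.4 and 78.9 in the null mutant and 62.5, 50.0 and 52.8 in the substitution group. Its null mutant arrays were again the 3 highest. The differences of the group means were 0.74 ± 0.16 and 0.66 ± 0.16, the latter the smallest difference from the substitution group among the 15.

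Near the end of the stretch, AT5G40060 was at 46.1, 37.2 and 50.7 in the double transformant, 86.2, 72.3 and 90.1 in the null mutant and 44.6, 53.1 and 47.6 in the substitution group. AT5G40150 was at 47.3, 36.0 and 46.3 in the double transformant, 80.5, 73.1 and 81.5 in the null mutant and 36.2, 37.0 and 50.3 in the substitution group. For both, the null mutant arrays were above the other 6. The differences of the group means were 0.84 ± 0.18 and 0.72 ± 0.18 in AT5G40060 and 0.81 ± 0.19 and 0.88 ± 0.19 in AT5G40150. AT5G40190, the last member, was at 182, 208 and 192 in the double transformant, 385, 339 and 336 in the null mutant and 206, 171 and 204 in the substitution group. The other 2 groups had the same mean (194 ± 12.8 and 194 ± 19.8, SD, n = 3), and the null mutant was higher by 0.85 ± 0.12 and 0.86 ± 0.12.

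**Figure D2:**
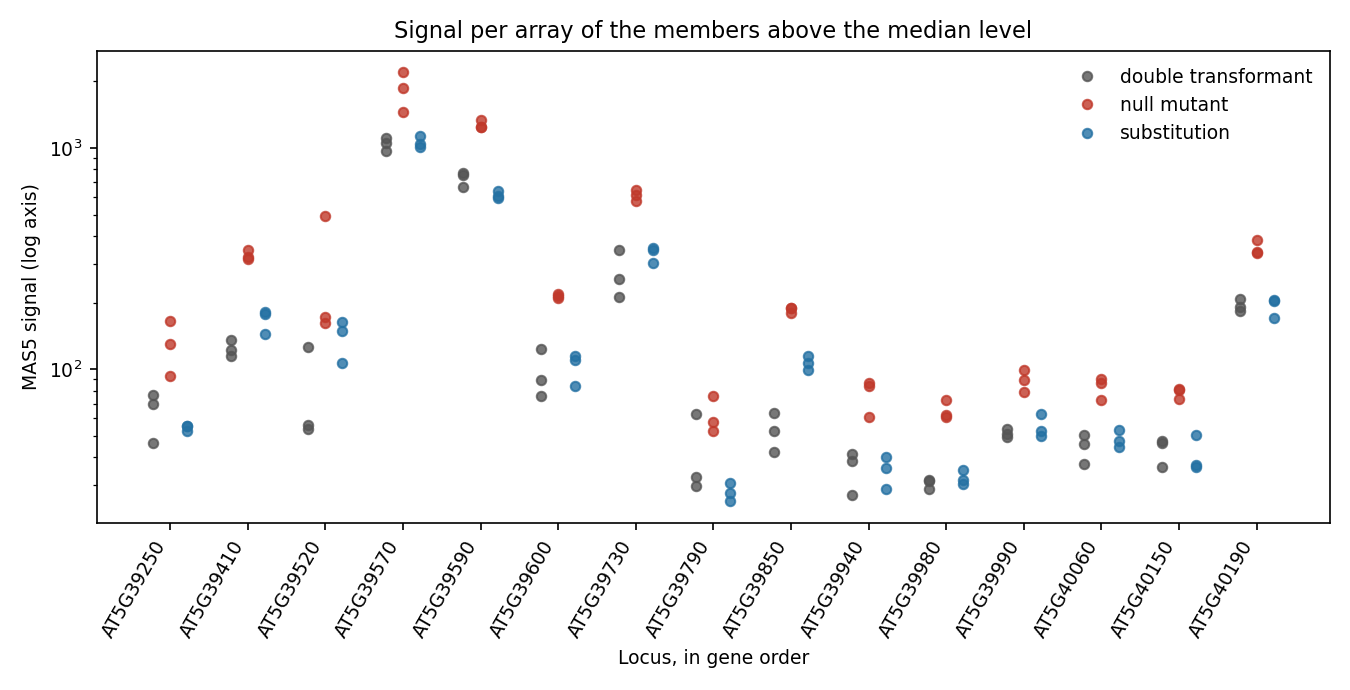
MAS5 signal (log axis) in each array for the 15 members above the median level, in gene order, with 1 point per array. The null mutant points are the 3 highest for 13 loci; in AT5G39520 and AT5G39790 another group reaches them.

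Over these 15 loci the differences from the substitution group were closer in size than those from the double transformant. The ratio of the null mutant mean signal to the double transformant mean had a median of 2.01 (quartiles 1.79 and 2.24, range 1.49 to 3.53). The ratio to the substitution mean was narrower, with a median of 1.95 (quartiles 1.78 and 2.08, range 1.62 to 2.37). Over all 5920 loci above the median level these ratios had medians of 0.993 and 1.02 and quartiles of 0.888 and 1.12, and 0.920 and 1.13. On the log2 scale the medians of the 15 were 0.96 and 0.88, and per array 0.90, 0.94 and 1.10 in null mutants 1, 2 and 3. When single arrays were left out the medians stayed between 0.886 and 1.04 and between 0.847 and 0.964, and without double transformant 3 and null mutant 3 together they were 0.869 and 0.890. The null mutant arrays were above all others for 13 of the 15, a pattern held by 1.66% of loci above the median level. The level of AT5G39790 and AT5G39980 passed the median only with the null mutant arrays counted. Over the 13 members that passed it in the other 6 arrays alone, the medians were 0.96 and 0.87. The null mutant arrays were above all others for 12 of these 13. The members were chosen by these signals, so nothing is read from either count.

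The substitution group stayed near the double transformant at most of these loci. Over the 15 loci its median ratio to the double transformant was 1.06 (range 0.668 to 2.03) and its median log2 difference 0.07, with 9 loci above 0 and 6 below. Its arrays lay wholly above those of the double transformant for AT5G39410 and AT5G39850 and wholly below them for AT5G39590. Over all 46 members, 3 were wholly above, the third being AT5G39670, and 2 wholly below, the other being AT5G39900 (10.3% and 8.32% of all loci). AT5G39850 was the single member called in this contrast (0.620% of all probe sets were called higher), with a log2 difference of 0.98 ± 0.15. That call was lost without double transformant 2 or any 1 of the 3 substitution arrays, and without double transformant 3 and null mutant 3 together. Over all probe sets the 170 calls in this contrast became 55, 52, 46, 78 and 73 in the same fits. AT5G39670, a dim member, was at 6.93, 8.57 and 11.5 in the double transformant, 20.7, 13.5 and 15.1 in the null mutant and 30.8, 16.8 and 25.8 in the substitution group, so that the substitution group, and not the null mutant, had the highest mean, with the arrays of both mutant groups overlapping.

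The 31 members below the median level were less regular. In the 14 between the 25th percentile of probe set means (6.64) and the median, the null mutant differed from the double transformant by a median of 0.64 and from the substitution group by 0.58, with 13 and 11 members above 0. All 3430 loci in this band had medians of 0.13 and 0.05. AT5G39370, AT5G39390 and AT5G40100 passed the 25th percentile only with the null mutant arrays counted, and AT5G40130 fell below it only with them counted. Nothing is therefore read from the medians and counts of this band. Among the 14, AT5G40020 was at 9.28, 10.6 and 3.21 in the double transformant, 31.5, 15.6 and 34.6 in the null mutant and 11.1, 10.2 and 13.3 in the substitution group. AT5G40180 was at 7.70, 15.9 and 2.92, 24.2, 19.7 and 28.0 and 16.4, 3.29 and 9.09 in the same order of groups. Both had all null mutant arrays above the other 6, and their differences from the double transformant were the largest of the dim members (1.42 ± 0.39 and 1.24 ± 0.47). AT5G39900 shared this, at 16.5, 15.9 and 18.6 in the double transformant, 28.2, 29.0 and 28.1 in the null mutant and 15.6, 12.7 and 12.9 in the substitution group. AT5G39785 was the third highest dim member, with 0.88 ± 0.47, from signals of 16.5, 12.2 and 2.25 in the double transformant, 31.1, 16.5 and 14.3 in the null mutant and 16.6, 16.4 and 8.99 in the substitution group, which overlapped. It is the single member with several probe sets, and the dimmer of them differed by 0.54.

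In the 17 members at or below the 25th percentile differences were small, and the sign of their median rested on a single array. Their medians were 0.20 against the double transformant and 0.10 against the substitution group (0.05 and 0.08 over all 3936 loci of this band). Relative to the double transformant, null mutant 3 was at 0.48, null mutant 1 at 0.01 and null mutant 2 at -0.29. Over all 3936 loci of this band the arrays stood in the same order, at 0.10, -0.03 and -0.16. Without null mutant 3 the medians were -0.07 and -0.09, with 6 of 17 members above 0 in each. EXPA21 was at 3.57, 1.13 and 0.624 in the double transformant, 0.566, 0.320 and 16.0 in the null mutant and 0.532, 1.18 and 0.595 in the substitution group. Its difference of 0.38 ± 0.50 came from null mutant 3 alone, since the other 8 arrays were below 4.05. EXPA24 was at 0.391, 0.324 and 2.28, 5.80, 0.341 and 6.63 and 3.19, 0.794 and 3.42 in the same order of groups, with null mutants 1 and 3 the highest and null mutant 2 among the lowest, and a difference of 0.64 ± 0.38. The lowest differences of all members were those of AT5G39560 (-0.64 ± 0.44), AT5G40040 (-0.51 ± 0.40) and AT5G40070 (-0.10 ± 0.59), all with overlapping groups. The kinase gene cdc2cAt was at 0.263, 1.70 and 3.08 in the double transformant, 2.90, 0.258 and 8.86 in the null mutant and 1.67, 6.28 and 4.91 in the substitution group, with overlapping groups. Elsewhere in the genome 8 alpha-expansin genes were measured. EXPA8 was called higher than the double transformant in both mutant groups and EXPA9 in the substitution group. In the null mutant EXPA8 differed from the double transformant by 1.26 and EXPA9, without a call, by 0.85. Over all 8 genes the differences of the null mutant from the double transformant had a median of 0.13 (range -0.74 to 1.26). Those from the substitution group had a median of -0.41 (range -1.08 to 0.51).

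**Figure D3:**
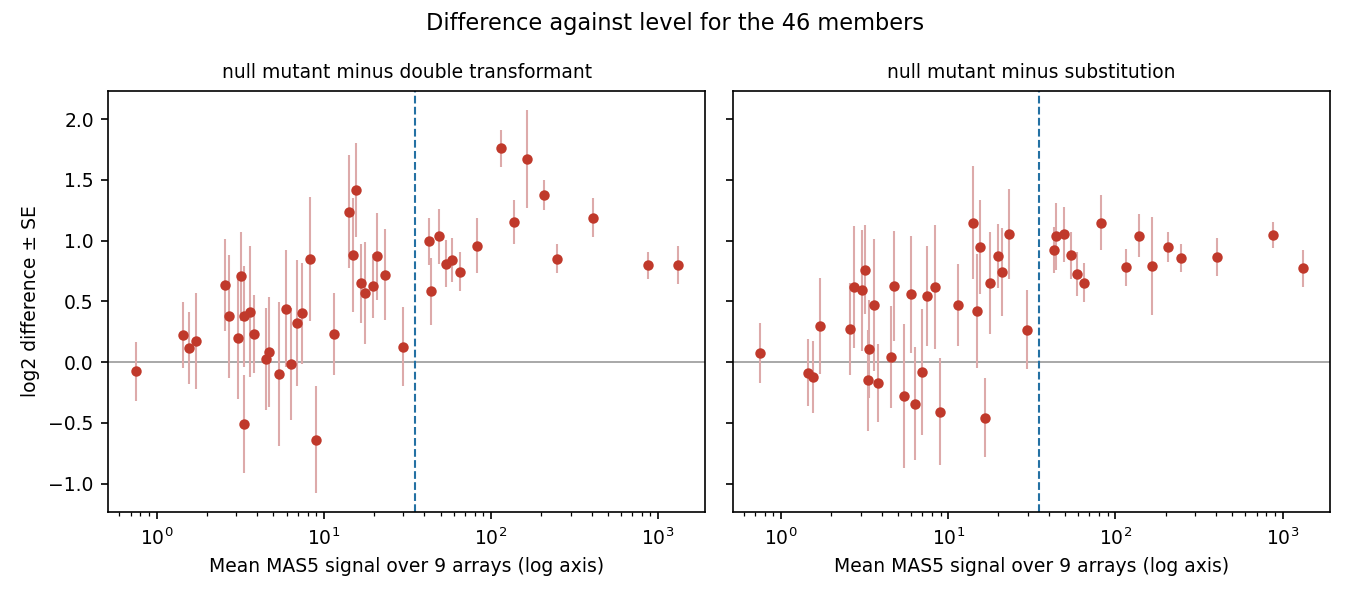
Log2 difference (± SE) of each of the 46 members against its mean signal over the 9 arrays (log axis), for the null mutant against the double transformant (left) and the substitution group (right). The dashed line marks the median of all probe set means, 34.9; to its right all 15 members lie above 0, between 0.58 and 1.76 on the left and 0.66 and 1.15 on the right, and to its left 26 of 31 members lie above 0 on the left and 22 of 31 on the right.

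The nearest measured loci above the median level on either side of the stretch did not share the difference. The interval was chosen by the same signals, so nothing is read from where the difference ends. The nearest locus above the median level before AT5G39250 was AT5G39080, at 299.9, 151 and 199.6 in the double transformant, 148, 168 and 109 in the null mutant and 171, 203 and 156 in the substitution group. Null mutant 3 was the lowest of the 9 arrays there, and the differences were -0.57 ± 0.23 and -0.32 ± 0.23. Of the 21 annotated loci between AT5G39080 and AT5G39250, 4 were measured, all of them dim: AT5G39090 (-0.31 from the double transformant), AT5G39130 (0.01), AT5G39220 (0.47) and AT5G39230 (-0.02), each with overlapping arrays. Their differences from the substitution group were -0.66, -0.30, 0.58 and 0.21 in the same order. After AT5G40190 the next measured locus was AT5G40250, with 6 annotated loci between them. It was at 72.4, 86.6 and 56.8 in the double transformant, 74.7, 55.7 and 68.4 in the null mutant and 48.5, 53.6 and 68.7 in the substitution group, with all groups overlapping and differences of -0.10 ± 0.20 and 0.21 ± 0.20. The next 4 loci after it, SWEET8 (a sugar transporter gene), AT5G40270, AT5G40290 and AT5G40320, differed from the double transformant by 0.60, 0.14, 0.46 and -0.39, all with arrays that overlapped the double transformant. From the substitution group these 4 loci differed by 0.30, -0.79, 0.74 and -0.008 in the same order. At AT5G40270 the substitution arrays were above all others.

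Farther out, the medians on both sides were close to 0. In the 46 measured loci before the stretch the median difference of the null mutant was 0.01 from the double transformant and -0.02 from the substitution group, with 2 loci where the null mutant arrays were above all others. In the 46 loci after it the medians were 0.07 and 0.07, with 1 such locus. Among those above the median level, 14 before and 23 after, the medians were -0.04 and -0.07 before and -0.07 and 0.07 after, and 0 and 1 loci had the null mutant above all other arrays. None of the loci in either flank was called in any of the 3 contrasts. Of all probe sets, 0.659% were called higher and 0.101% lower in the null mutant against the double transformant. Against the substitution group these shares were 0.0352% and 0.0044%. For the substitution group against the double transformant they were 0.620% and 0.127%. With shares this low, nothing is read from the absence of calls.

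**Figure D4:**
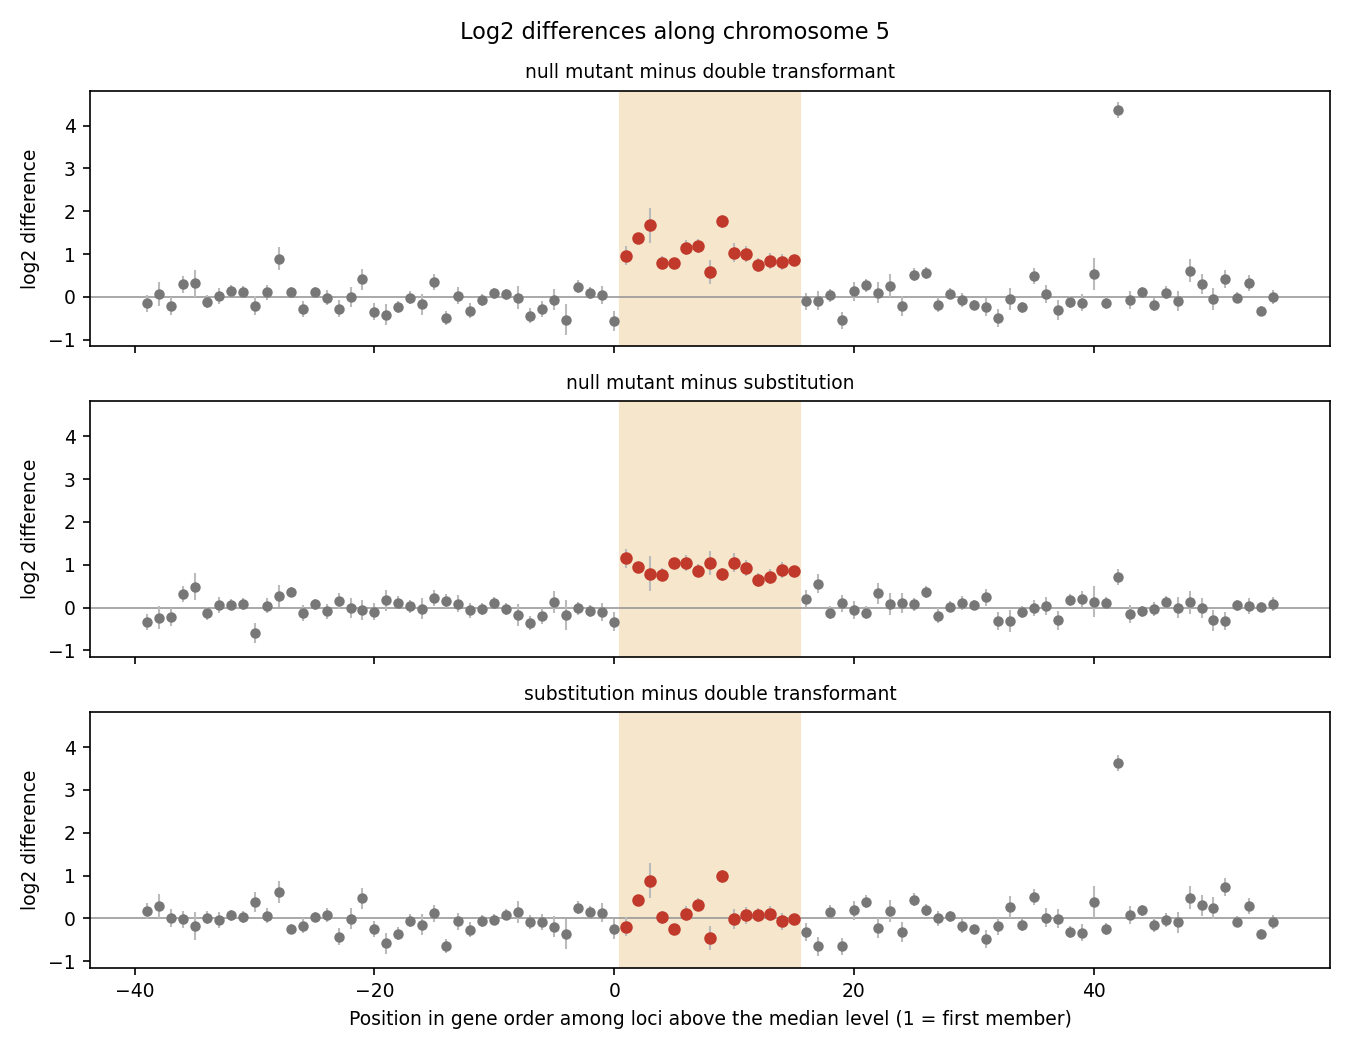
Log2 differences (points, bars ± SE) along chromosome 5 for loci above the median level, in gene order, with the 15 members in red on a shaded ground and 40 loci on each side in grey. In the upper and middle panels the members stand between 0.58 and 1.76 and between 0.66 and 1.15 while most loci around them lie near 0. In the bottom panel the members lie on both sides of 0, from -0.45 to 0.98, with AT5G39850 (0.98) and AT5G39520 (0.88) the highest of them. A locus well after the members is far above the rest in the top and bottom panels.

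Along the stretch, the loci above the median level with the null mutant above all other arrays were AT5G39250 and AT5G39410, then the 4 from AT5G39570 to AT5G39730, then the 7 from AT5G39850 to AT5G40190. AT5G39520 and AT5G39790, where another group reached the null mutant range, lay between these. The interval was chosen for neighbours that were higher together, and AT5G39980 passed the level filter only through the null mutant arrays, so nothing is read from this order.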

How the data were processed

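The deposited table holds linear MAS5 signal intensity values for 22810 probe sets; per the submitters' processing notes they were made with MAS5 and GCOS, whose versions are not stated. The mean trimmed by 2% at each end was 100 in every deposited column. Detection calls were not used here. After 64 control sets were left out, 22746 probe sets entered limma 3.58.1 (R 4.3.3) on log2(signal + 4.05) with 3 group means, empirical Bayes moderation with an intensity trend and Benjamini-Hochberg adjustment, which was tested on simulated data. Names came from an older platform annotation (13513 probe sets with 1 gene, 503 with several, 8730 with none), updated through gene identifiers with RefSeq TAIR10.1, used only for names and gene order; 13436 matched a locus. The members, lists and tests were chosen with earlier results of these data known. Members above the median signal were all named, and of the others EXPA21, EXPA24, the 3 highest and 3 lowest differences and 5 loci on each side. AT5G39670, AT5G39900 and cdc2cAt were named after their values were seen, as were the bands below the median level. Same-numbered arrays had deviations correlated between -0.0409 and 0.154, so numbers were not treated as pairs. The results were recomputed with other offsets, without dim probe sets, after quantile or median scaling, with no variance trend, a replicate block, other probe set choices or fits of 6 arrays, and without single arrays or the 3 with rpt in their titles. The fit without both double transformant 3 and null mutant 3 was added after seeing the data. Promoter and protein sequences and strands were not used here.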

Additional observations from a re-analysis of the deposited data

Results flagged for a closer look

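Outside the members, 5 probe sets are annotated to several loci of which at least 1 lies in the stretch, so they stand for no single gene. In the brightest of them, whose annotated loci all lie in the stretch, signals were 73.2, 58.6 and 59.9 in the double transformant, 123, 131 and 126 in the null mutant and 90.5, 64.8 and 60.04 in the substitution group. The null mutant arrays were above the other 6, with a log2 difference of 0.949 from the double transformant and 0.805 from the substitution group. In another, annotated to 2 alpha-expansin loci of the stretch, signals were 0.334, 1.27 and 0.810, 7.14, 1.45 and 1.29 and 1.20, 1.12 and 0.916 in the same order of groups. Its null mutant arrays were all above the double transformant arrays, the lowest of them barely, with a log2 difference of 0.511 and 8 of 9 arrays below the offset of 4.05. Both were singled out because a probe set that the comparisons did not use had all null mutant arrays above the double transformant. Of the other 3, all with overlapping arrays and all dim, the log2 differences from the double transformant were -0.24, 0.26 and 0.25, the last in a further pair of alpha-expansin loci. All 5 entered the fit over all probe sets and are given here as a description.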

How the results depend on the processing

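The median differences of the null mutant kept their sign in all 19 alternatives run for them. Against the double transformant and the substitution group they were 0.353 and 0.283 with 4 times the offset and 0.959 and 0.879 without dim probe sets, which leaves 15 members; without single arrays they ran from 0.535 to 0.747 and from 0.602 to 0.735. The median of the substitution group against the double transformant, 0.012, was 0.071 without dim probe sets, -0.0434 with median centring, 0.0883 without the rpt arrays and -0.0194 to 0.0661 without single arrays, so its sign was not the same throughout. The count of members with the null mutant above all other arrays, 16 of 46, ran from 16 to 20 of 46, and was 13 of the 15 left without dim probe sets. Counts of called members were less stable. Against the double transformant the 8 called were 4 without a variance trend, 4 without the rpt arrays, 5 with 6 arrays in the fit, 2 without double transformant 3 and null mutant 3, 5 to 7 without single arrays, and 11 of 15 without dim probe sets. Over all probe sets the 173 calls became 113, 61, 58 and 57 in the same order, then 73 to 339 without single arrays. Without dim probe sets 160 of 11373 were called. Against the substitution group the 3 called were 0 without a variance trend, 1 with the replicate block, 0 without the rpt arrays, 1 with 6 arrays in the fit, 0 without double transformant 3 and null mutant 3, and 0 to 4 without single arrays. The 9 calls over all probe sets became 0, 7, 18, 4 and 0 in the same order, then 0 to 48 without single arrays. The single member called in the substitution group against the double transformant was 0 without a variance trend, 0 without double transformant 3 and null mutant 3, and 0 to 1 without single arrays. Over all probe sets the 170 calls in this contrast became 88, 73 and 46 to 212 in the same order. Some of these fits had fewer arrays, and the cause of the changes in the counts was not tested. The replicate block left the median differences of the null mutant at 0.632 and 0.624 and 7 members called against the double transformant. Over all probe sets, calls ran from 57 to 339, 0 to 48 and 46 to 369 in the 3 contrasts. For the 15 members above the median level, 510 of 510 differences of the null mutant over 17 alternatives were above 0. The members were chosen for being higher in the null mutant, and the alternatives reuse the same arrays. AT5G39790 and AT5G39980 also passed the level filter only through the null mutant arrays. The shared sign is therefore no support for the difference. Signal near background limits the 17 dimmest members.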
